A study of Mus musculus with 8 samples.

Results

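Rab GTPases are small proteins that switch between an active form bound to GTP and an inactive form bound to GDP. In the active form a Rab sits on a particular membrane compartment and recruits the proteins that bud, move, tether or fuse its vesicles, so each compartment of the cell is marked by its own Rabs. The epithelium of the mouse yolk sac is known for heavy uptake of material by endocytosis and for secretion of serum proteins, and red cell precursors are known for the rapid cycling of the transferrin receptor through endosomes. The genes described here were all those whose symbol on the array is Rab, a number and at most 1 letter, with Rab27b left out. There were 49 of them, measured by 93 probe sets, among 12393 genes named on the array.

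The samples were laser captures from frozen yolk sac sections of FVB/N mice at embryonic day 9.5, with no treatment or genetic change named in the labels. Primitive erythroid precursors made up 4 samples and epithelial cells the other 4, and each erythroid sample was paired with an epithelial sample from the same slides. Per the labels' protocols, each replicate pooled 2 to 4 yolk sacs from 2 litters, and 2 to 3 laser pulses were needed for an erythroid cell against 1 for an epithelial cell. From 10 to 39 ng of RNA per sample was amplified in a two-cycle labelling and read on 1 Affymetrix 430A 2.0 array, a mouse expression array, and the precision of each value is limited by the number of arrays.

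Median deposited signals ran from 81.6 to 127 over the arrays. All 8 of 8 erythroid markers were higher in the erythroid captures, at summed signals of 28640 to 55163 against 5947 to 12994 in the epithelial captures. Of 8 visceral endoderm markers 7 were lower, and the signals summed over all 8 were 36731 to 57721 against 64422 to 104626. Much of these sums came from Ttr, which was not called (mean signals 28477 in the erythroid and 29130 in the epithelial captures). Markers of each cell type were thus present in both captures. Of 7 mesenchyme and mesothelium markers tested 5 were higher (23980 to 40046 against 5223 to 20741, summed over the 8 measured). So were 2 of 5 megakaryocyte markers and 1 of 4 endothelial markers (limma called 0 of 3 macrophage markers tested, and 2 had an unadjusted p under 0.05). For the Gapdh control the 3'/5' ratio, which is high where RNA is shortened, ran from 38.7 to 44.4 on the arrays of pairs 1 and 2, but from 6.999 to 17.4 on those of pairs 3 and 4. Values within each set of 2 pairs are therefore given beside many genes. The ratio also differed within pairs. For pairs 1 to 4 it was 44.4, 38.7, 17.4 and 6.999 on the erythroid arrays, against 39.7, 39.05, 8.16 and 7.70 on the epithelial arrays. The Actb ratio was 46.5, 63.1, 13.5 and 12.5 on the erythroid arrays, against 131, 76.5, 11.3 and 7.75 on the epithelial arrays. In whole captures, fewer cells of a type and less RNA per cell cannot be told apart. The part that other cell types or RNA quality had in the values of the Rab genes was not tested.

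The signal was compared between captures within pairs. Differences are given on a log2 scale as erythroid minus epithelial, after quantile normalisation. The standard error (SE) is that of a limma fit across 11449 probe sets, and a gene was called at an adjusted p under 0.05. The variance in this SE was moderated, that is drawn toward a trend over all probe sets. The SE is therefore not the plain spread of the 4 pairs. Of the 49 Rab genes, 37 were bright enough to be tested. Of these, 1 was higher in the erythroid captures, Rab8b, and 6 were lower: Rab30, Rab4a, Rab17, Rab9, Rab22a and Rab1a. The share of all 7191 genes tested that was called higher was 6.02%, and the share called lower was 8.87%, against 2.70% and 16.2% of the tested Rab genes. The other 30 Rab genes were not called. An unadjusted p under 0.05 was found for 16 of the 37, beside 2237 of all 7191 genes, and values below 0 for 24 of the 37, beside 3623 of all 7191. The median over the 37 was -0.27, beside -0.01 over all genes tested. The 7 calls were spread over 4 of the 5 role groups that had tested members: 3 in recycling and polarised delivery, 2 in the endoplasmic reticulum and Golgi group and 1 each in the early and late endosome groups.

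**Figure D1:**
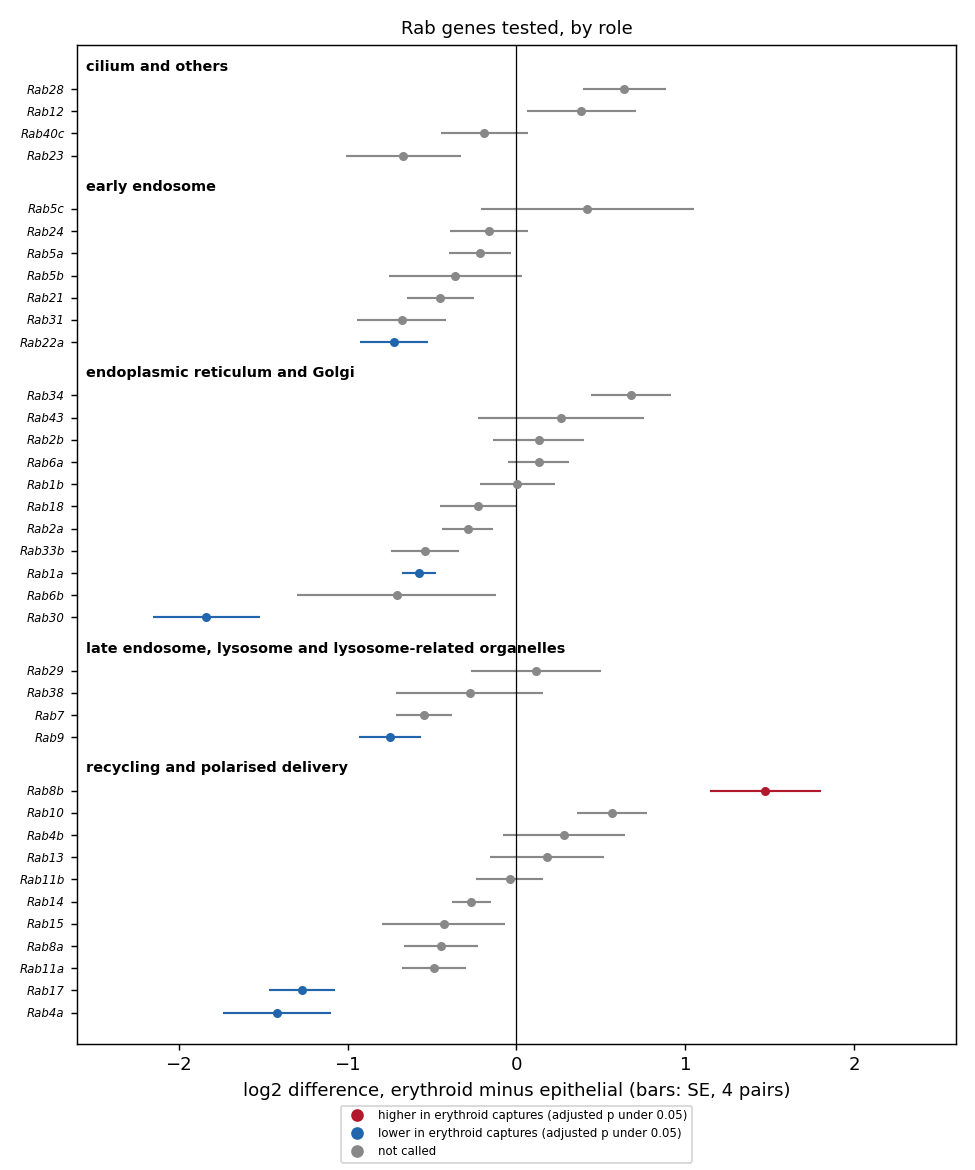
Log2 difference between erythroid and epithelial captures for each of the 37 Rab genes tested, grouped by role, with bars for the moderated limma standard error (4 pairs). Rab8b stands at 1.47 on the right, and the 6 genes called lower run from -0.58 for Rab1a to -1.84 for Rab30.

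Of the 49 genes, 42 had at least 1 promoter window in the RefSeq table of build GRCm38.p6, running from 250 bases before to 50 bases after a gene's start. The windows shown are those of the Rab gene called higher and of a pair of genes called lower, Rab17 and Rab22a. Of the 5 called genes with a window, Rab17 had the fewest CpG and Rab22a, with Rab1a, the most. The called genes Rab30 and Rab4a had no window in the table. They are Rab8b at chr9:66919656-66919955 on the minus strand, Rab17 at chr1:90967618-90967917 on the minus strand and Rab22a at chr2:173659595-173659894 on the plus strand, each read 5′ to 3′. Capitals mark the letters GGGCGG (core of the Sp factor motif) and GATAA (core of the GATA factor motif) on either strand. These were 2 of 6 motifs searched on both strands, all chosen with earlier results known, and overlapping matches were counted apart.
Rab8b: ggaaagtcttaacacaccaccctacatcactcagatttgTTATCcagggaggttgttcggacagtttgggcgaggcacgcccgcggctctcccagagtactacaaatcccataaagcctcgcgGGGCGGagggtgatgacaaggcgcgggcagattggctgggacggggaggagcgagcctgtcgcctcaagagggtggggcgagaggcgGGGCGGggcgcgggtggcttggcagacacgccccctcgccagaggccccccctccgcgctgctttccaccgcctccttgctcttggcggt
Rab17: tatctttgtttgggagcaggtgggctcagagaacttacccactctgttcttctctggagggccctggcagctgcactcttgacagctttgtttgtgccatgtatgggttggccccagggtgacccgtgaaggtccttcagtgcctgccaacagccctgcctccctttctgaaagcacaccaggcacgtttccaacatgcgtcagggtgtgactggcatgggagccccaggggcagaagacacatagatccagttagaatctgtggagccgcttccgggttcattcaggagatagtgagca
Rab22a: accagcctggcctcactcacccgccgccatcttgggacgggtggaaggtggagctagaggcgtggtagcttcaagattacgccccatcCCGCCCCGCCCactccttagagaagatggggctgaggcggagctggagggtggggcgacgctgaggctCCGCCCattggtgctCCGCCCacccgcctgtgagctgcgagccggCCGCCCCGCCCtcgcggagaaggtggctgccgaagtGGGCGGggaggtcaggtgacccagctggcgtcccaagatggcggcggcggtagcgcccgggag
The Rab8b window held 24 CpG dinucleotides at 65.3% G and C, with 2 matches to GGGCGG and 1 to GATAA. The Rab22a window held 27 CpG at 70.7%, with 7 matches to GGGCGG and 0 to GATAA. The Rab17 window held 5 CpG at 55.7% and no match to either. The windows of Rab1a and Rab9 held 27 and 9 CpG. Over all 32851 windows of the table the median was 7 CpG and 52.7% G and C, and over the 54 windows of the Rab genes 20 CpG and 61.2%. GGGCGG or its reverse complement stood in 35.7% of all windows and in at least 1 window of 32 of the 42 Rab genes, and GATAA in 25.4% of all windows and in a window of 12 of the 42. The motif of Kruppel-like factors, searched as CCNCNCCC and able to overlap that of the Sp factors, stood in 49.5% of all windows and in windows of 30 of the 42 genes. The E-box, searched as CACGTG, stood in 7.15% of all windows and in windows of 6 of the 42 genes. The motif of Foxa factors, searched as TGTTTAC, was present in 3.65% of all windows and for 1 of the 42 genes. A TATA box, searched as TATAAA, was present in 13.6% of all windows and for 2 of the 42 genes. For all 6 motifs the shares count windows, while the Rab figures count genes, some with several windows. A gene with several windows has more room for a match, so the 2 kinds of figure cannot be compared directly. A match is a description of letters and no evidence of binding, and a window without one says only that these letters are not in it.

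A group of 12 Rab genes, of recycling and polarised delivery, carries cargo back from endosomes to the cell surface or outward from the Golgi to a given side of the cell. Of 11 tested, Rab8b was higher, Rab4a and Rab17 were lower and 8 were not called (median -0.27). Rab17, a Rab found mainly in polarised epithelia, where it takes part in recycling and transcytosis, read 704, 720, 594 and 707 (deposited signal, pairs 1 to 4) in the erythroid captures, against 1584, 1596, 1833 and 1642 in the epithelial captures. There was no overlap between the groups, and the arrays within each lay close together. Rab17 fell by 1.27 ± 0.19 (SE, n = 4 pairs, adjusted p = 0.00303). It was lower in 4 of 4 pairs and stood at -1.11 for pairs 1 and 2, against -1.43 for pairs 3 and 4. Its call held in each of the 16 alternatives that measured it (adjusted p = 1.22e-05 to 0.0401).

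Rab4a returns receptors from early endosomes to the surface by the fast route. Its signals were 288, 169, 78.2 and 440 in the 4 erythroid captures, against 534, 420, 480 and 746 in the epithelial captures. The erythroid array of pair 4 lay above the epithelial array of pair 2, and the erythroid array of pair 3 was below background, but within each pair the erythroid capture was lower. Rab4a fell by 1.42 ± 0.32 (SE, n = 4 pairs, adjusted p = 0.0154). Its other tested probe set gave -0.90 ± 0.39 with no call (adjusted p = 0.153). The call was lost without the pair term (adjusted p = 0.119), without a variance trend (0.0694) and without x, s and a probe sets (0.158), within a range of 2.36e-05 to 0.158 over the alternatives.

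Rab8b, a close relative of Rab8a that serves transport from the Golgi to the plasma membrane, was the 1 Rab gene called higher. Its signals were 3417, 2756, 2999 and 2580 in the 4 erythroid captures, against 2461, 1697, 485 and 664 in the epithelial captures. All erythroid arrays lay above all epithelial arrays, and the epithelial arrays of pairs 3 and 4 were far below those of pairs 1 and 2 while the erythroid arrays were similar. Rab8b was higher by 1.47 ± 0.33 (SE, n = 4 pairs, adjusted p = 0.0148). The first 2 pairs gave 0.58 and the last 2 gave 2.37, and this contrast of the pair sets passed its own test (1.78, adjusted p of the interaction 0.00822). It was the only Rab gene of 37 to do so, beside 2.00% of all genes tested, and 6 of 37 had an unadjusted p under 0.05, beside 978 of all 7191 genes. All the marker lists also lay farther from 0 in pairs 3 and 4. Their medians in these sets were 0.34 and 2.39 for mesenchyme and mesothelium, 1.33 and 3.28 for erythroid and 0.81 and 2.48 for megakaryocyte markers. They were 0.69 and 0.93 for endothelium, 0.36 and 0.66 for macrophage and -1.08 and -2.20 for visceral endoderm markers. Any link of these to Rab8b was not tested. The call of Rab8b was lost without replicate 3 (1.07, adjusted p = 0.0608), without replicate 4 (1.28, adjusted p = 0.0887), without the pair term (0.105) and without a variance trend (0.0897). Its adjusted p ran from 2.37e-15 to 0.105 over the alternatives. These include fits of 2 pairs alone, where a low adjusted p leans on the moderated variance.

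**Figure D2:**
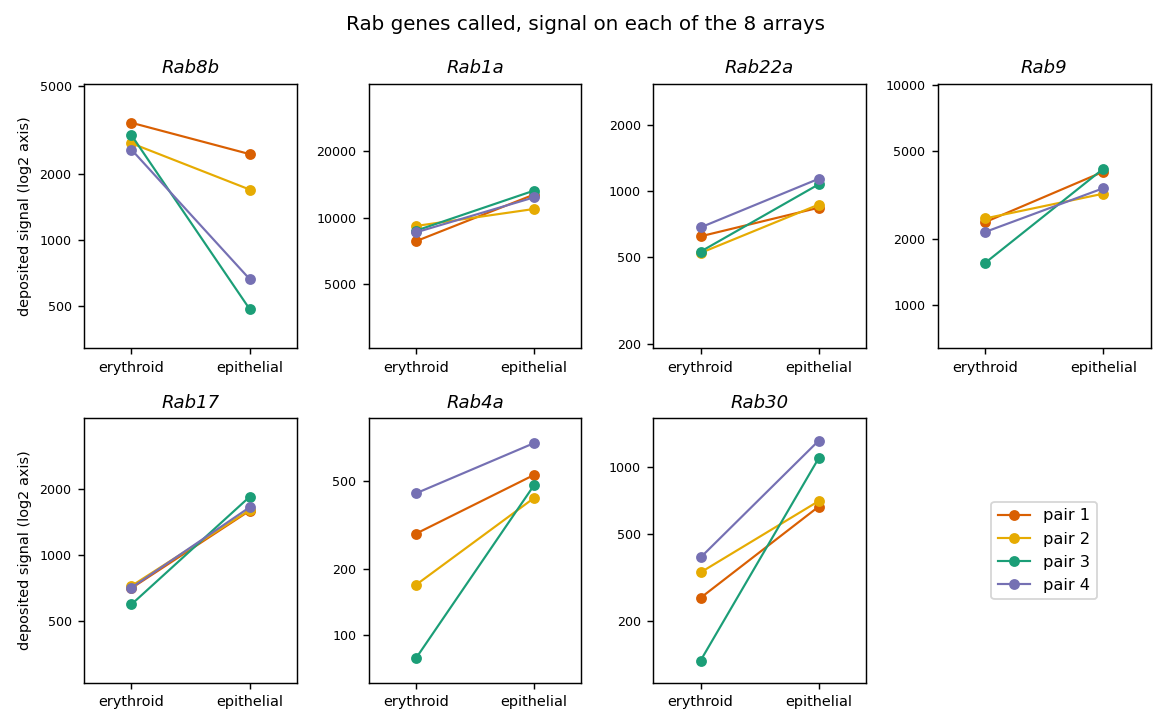
Deposited signal of the 7 Rab genes called, on a log2 axis of equal span in each panel, with the erythroid capture left, the epithelial capture right and a line for each of the 4 pairs. Rab8b falls from left to right in each pair and most steeply in pairs 3 and 4, and the lines of the other 6 genes climb in each pair.

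The other members of this group were not called with all 4 pairs. Rab10, which serves delivery to the basolateral surface of epithelia, was at 0.57 ± 0.21 (adjusted p = 0.0976, 95% interval of the difference 0.10 to 1.03 before adjustment), with all 3 of its tested probe sets between 0.44 and 0.57. Its signals were 1460, 1088, 1565 and 2254 in the erythroid captures against 1094, 1077, 975 and 1156 in the epithelial captures, higher within 4 of 4 pairs but overlapping between groups. With pairs 3 and 4 alone Rab10 passed (0.91, adjusted p = 0.00583). That setting, used again below, rests on 2 pairs and calls more of all 7191 genes. It gave 898 higher and 1019 lower, in place of 433 and 638 with all pairs. Over its alternatives Rab10 was above 0 throughout. Rab11a, the main Rab of the slow recycling endosome, was at -0.49 ± 0.19 (adjusted p = 0.112). In the 2 sets of pairs Rab11a stood at -0.09 and -0.89, and its other tested probe set was at -0.71 (adjusted p = 0.0765). Rab11a passed with pairs 3 and 4 alone (adjusted p = 0.000407). Rab14, which acts between the Golgi and endosomes, was at -0.27 ± 0.11 on its brightest probe set (adjusted p = 0.147), and its 4 tested probe sets lay between -0.72 and -0.27 with none called. Rab8a, which like Rab8b serves delivery to the plasma membrane, was at -0.45 ± 0.22 (adjusted p = 0.207). Rab15, of the recycling endosome, was at -0.43, Rab11b, a relative of Rab11a, at -0.04, Rab13, of tight junctions, at 0.18 and Rab4b, a relative of Rab4a, at 0.28. Rab25, an epithelial relative of Rab11a, was not tested, and 1 of its 4 erythroid and 1 of its 4 epithelial arrays lay above background.

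The Rabs of the endoplasmic reticulum and Golgi act in the secretory route, and 11 of 12 were tested. Of these, Rab30 and Rab1a were lower and 9 were not called (median -0.23). Rab30, a Rab of the Golgi, had the largest difference of the 37 tested Rab genes. Its signals were 255, 333, 132 and 389 in the 4 erythroid captures, against 663, 703, 1102 and 1324 in the epithelial captures. Each erythroid array lay below each epithelial array, and the lowest erythroid value, in pair 3, stood beside the second highest epithelial value. Rab30 fell by 1.84 ± 0.32 (SE, n = 4 pairs, adjusted p = 0.00484). It was at -1.22 for pairs 1 and 2, against -2.45 for pairs 3 and 4, a contrast that missed the threshold of its test (adjusted p of the interaction 0.255). The call held in each of the 16 alternatives that measured it (adjusted p = 4.44e-12 to 0.0486). These too include fits of 2 pairs alone.

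Rab1a carries vesicles from the endoplasmic reticulum to the Golgi. Its signals were 7803, 9151, 8712 and 8560 in the erythroid captures, against 12726, 10939, 13264 and 12357 in the epithelial captures. Each erythroid array was again below each epithelial array. Rab1a fell by 0.58 ± 0.10 (SE, n = 4 pairs, adjusted p = 0.00494), the smallest difference among the 7 called. Its other tested probe set was at -0.35 with no call (adjusted p = 0.141). The call was lost with arrays centred on their medians (adjusted p = 0.0707) or on the 75th percentile (0.061), without the pair term (0.0955) and without a variance trend (0.103), within a range of 0.000246 to 0.103 over the alternatives.

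Rab2a, which acts between the Golgi and the endoplasmic reticulum, was read from its brightest probe set at -0.29 ± 0.15 (adjusted p = 0.236). One of its other 3 tested probe sets was called lower, at -0.82 (adjusted p = 0.0391), and the remaining ones were at -0.09 and -0.40. Its 4 probe sets therefore shared a sign but not a size. Rab33b, a Golgi Rab, was at -0.54 ± 0.20 (adjusted p = 0.0994) and lower in 4 of 4 pairs. Rab34, known from the Golgi and from cilium formation in the mouse, was at 0.68 ± 0.24 (adjusted p = 0.0798) and higher in 4 of 4 pairs, and it passed without replicate 2 (0.89, adjusted p = 0.0459) and for pairs 3 and 4 alone (1.02, adjusted p = 0.00808). The other tested probe set of Rab34 was at 0.26. Rab18, found on the endoplasmic reticulum and lipid droplets, was at -0.23, and passed with pairs 3 and 4 alone (-0.67, adjusted p = 0.0498). In pairs 1 and 2 Rab18 had the opposite sign (0.22). Among the remaining genes of the group were Rab6a, of transport within and out of the Golgi, at 0.13, Rab2b at 0.13, Rab43, a Golgi Rab, at 0.26 and Rab1b at 0.01. Rab6b was at -0.71 ± 0.59 on a dim probe set, with 1 of 4 erythroid and 3 of 4 epithelial arrays above background. Rab33a was not tested.

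Rabs of the early endosome govern the first compartment that endocytosed cargo reaches. Of 7 tested out of 8, Rab22a was lower and 6 were not called (median -0.36). Rab22a, which sorts cargo from early endosomes into recycling, had signals of 620, 521, 529 and 681 in the erythroid captures, against 837, 865, 1070 and 1134 in the epithelial captures. No erythroid array reached the lowest epithelial one. Rab22a fell by 0.72 ± 0.20 (SE, n = 4 pairs, adjusted p = 0.0381). The call was lost when any 1 pair was left out (adjusted p = 0.0597 without replicate 1, 0.0743 without replicate 2, 0.125 without replicate 3 and 0.153 without replicate 4), without the pair term (0.0962), without a variance trend (0.0782) and for the first 2 pairs alone (0.243). Its range over all alternatives was 0.019 to 0.243.

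The Rab5 isoforms, which drive fusion of early endosomes, were not called. Rab5a had signals of 3439, 4185, 2262 and 3218 in the erythroid captures, against 4385, 3969, 4293 and 3153 in the epithelial captures. The groups overlapped, and the difference was -0.22 ± 0.18 (adjusted p = 0.474, 95% interval -0.62 to 0.19 before adjustment). Rab5b was at -0.36 and lower in 4 of 4 pairs, on a probe set below background on 3 of 8 arrays. Rab5c was at 0.42 ± 0.63 (adjusted p = 0.7), with signals of 87.8, 163, 122 and 159 in the erythroid captures against 21.1, 32.04, 317 and 244 in the epithelial captures. Its epithelial arrays were lowest in pairs 1 and 2 and highest in pairs 3 and 4, and the difference was 1.97 in the one set and -1.13 in the other (adjusted p of the interaction 0.0979). Rab31, which acts between the trans-Golgi network and endosomes, was at -0.68 ± 0.26 (adjusted p = 0.11) and Rab21, known for integrin traffic, at -0.45 ± 0.20 (adjusted p = 0.158), each lower in 4 of 4 pairs. Rab24 was at -0.16, and Rab20 was not tested.

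The late endosome, lysosome and related organelles had 7 Rab genes, of which 4 were tested, Rab9 was lower and 3 were not called (median -0.41). Rab9 carries mannose 6-phosphate receptors from late endosomes back to the trans-Golgi network. Its signals were 2382, 2476, 1553 and 2149 in the erythroid captures, against 4040, 3209, 4166 and 3398 in the epithelial captures. The groups lay apart, and pair 3 held both the lowest erythroid and the highest epithelial value. Rab9 fell by 0.75 ± 0.19 (SE, n = 4 pairs, adjusted p = 0.0232), with values of -0.49 and -1.003 in the 2 sets of pairs. The call was lost without replicate 3 (-0.55, adjusted p = 0.0998), without replicate 4 (0.0834), for the first 2 pairs alone (0.101), without the pair term (0.0746) and without a variance trend (0.105), within a range of 0.000224 to 0.105.

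Rab7, the Rab of late endosomes and of their fusion with lysosomes, lay just outside the threshold. Its signals were 1786, 1810, 1621 and 1703 in the erythroid captures, against 2299, 2541, 2618 and 3008 in the epithelial captures. The groups did not overlap, and the difference was -0.55 ± 0.17 (adjusted p = 0.0526). It passed with the deposited scaling (adjusted p = 0.0365), with arrays centred on their medians (0.0408) or the 75th percentile (0.0409), with the stricter filter (0.0447) and in pairs 3 and 4 alone (0.0202), within a range of 0.0202 to 0.312. Its other tested probe set was at -0.14. Rab38, which serves lysosome-related organelles such as melanosomes, was at -0.28 ± 0.43, and Rab29 at 0.12 ± 0.39. Rab27a, Rab32 and Rab7b were not tested.

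Of 5 Rabs known from cilia or with other roles 4 were tested, and limma called 0 of them, Rab28 alone having an unadjusted p under 0.05. Rab28 was at 0.64 ± 0.25 (adjusted p = 0.112), with signals of 801, 627, 1214 and 765 in the erythroid captures against 549, 597, 450 and 529 in the epithelial captures. The groups lay apart, and its other tested probe set was at 0.19. Rab28 passed with pairs 3 and 4 alone (0.99, adjusted p = 0.00935) and was at 0.29 for pairs 1 and 2. Rab23, a regulator of Hedgehog signalling in the mouse embryo, was at -0.67 ± 0.34 (adjusted p = 0.222), Rab12, known from degradation of the transferrin receptor, at 0.38 and Rab40c, part of a ubiquitin ligase, at -0.19. The Rabs of regulated secretion, Rab3a, Rab3b, Rab3c, Rab3d and Rab37, and Rab40b were too dim to be tested. Among the 12 untested Rab genes, 6 were above background on none of the 8 arrays: Rab37, Rab3a, Rab3b, Rab3c, Rab40b and Rab7b. Of the 37 tested, 26 were above background on all 8 arrays.

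Close relatives were set side by side by the difference of their log2 differences within pairs, tested by a two-sided exact sign-flip permutation test. With 4 pairs its smallest possible p is 0.125, so no comparison could pass, and there were 8 comparisons. Rab8b exceeded Rab8a by 1.92 (SD 1.10, n = 4 pairs, exact p = 0.125, 0.333 after Benjamini-Hochberg adjustment), in 4 of 4 pairs. Rab4a lay below Rab4b by a log2 value of -1.70 (SD 1.39, n = 4 pairs, exact p = 0.125, adjusted 0.333), and Rab1a below Rab1b by -0.58 (SD 0.29, n = 4 pairs, exact p = 0.125, adjusted 0.333), each in 4 of 4 pairs. For these relatives the called gene and its relative differed in the same order in each pair. The called genes were called from these same differences, so the order is no separate evidence. For Rab11a and Rab11b (-0.45, SD 0.57), Rab2a and Rab2b (-0.42, SD 0.77), Rab6a and Rab6b (0.84, SD 1.43), Rab5a and Rab5b (0.14, SD 0.62) and Rab5a and Rab5c (-0.64, SD 1.68) the order differed between pairs.

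Across the tested Rab genes the size of the difference was larger in pairs 3 and 4 for 27 of 37, beside 4702 of all 7191 genes tested. Medians were -0.24 for the first set and -0.34 for the second. The 6 genes called lower had negative values in both sets. The uncalled genes with opposite signs in the sets included Rab5c, Rab38 (-1.18 and 0.63), Rab6b (0.18 and -1.60), Rab43 and Rab29, each below background on at least 1 array. They also included Rab18 (0.22 and -0.67), Rab2b (-0.27 and 0.53), Rab40c (0.10 and -0.48), Rab1b (0.16 and -0.15) and Rab11b (-0.12 and 0.042), which were above background on all 8 arrays. None of these genes passed the interaction test after adjustment, and Rab5c, Rab18 and Rab38 had an unadjusted p under 0.05.

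**Figure D3:**
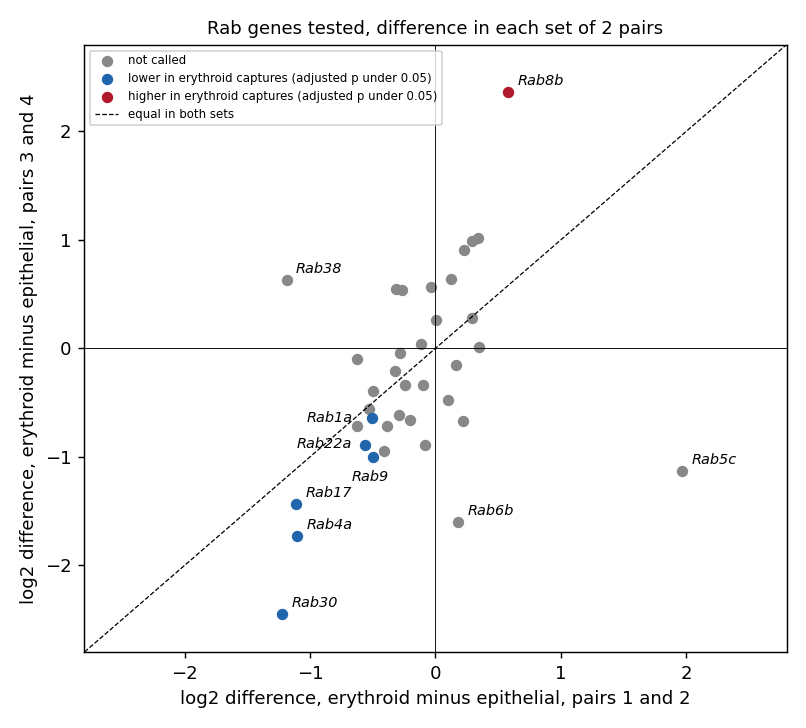
Log2 difference of each tested Rab gene in pairs 1 and 2 (horizontal axis) and in pairs 3 and 4 (vertical axis), with a dashed line where both are equal. Rab8b lies well above the line at 0.58 and 2.37, the 6 genes called lower lie below it on the negative side, and Rab5c lies at 1.97 and -1.13.

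The Rab cycle depends on proteins that attach a lipid anchor, withdraw inactive Rabs from membranes, load GTP or speed its hydrolysis, and on effectors that bind the active form. Of 133 such genes listed, 81 were measured and 54 tested. Of these, 1 was higher (Myo5a), 4 were lower (Plin3, Myo5b, Rab3ip and Evi5) and 49 were not called, which is 1.85% higher and 7.41% lower, beside 6.02% and 8.87% of all genes tested. Their median was -0.14, but -0.30 without replicate 3, -0.29 without x, s and a probe sets, -0.28 with median centring and -0.09 with the deposited scaling. In 20 of the 54 all 4 pairs had 1 sign, beside 2748 of all 7191 genes.

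Of 5 tested genes listed for prenylation and recycling of Rabs, limma called 0, and 1 had an unadjusted p under 0.05. Gdi2, which withdraws inactive Rabs from membranes, was at -0.13 ± 0.13 (adjusted p = 0.542), at mean signals of 12182 in the erythroid and 13198 in the epithelial captures. Chm, the escort protein that presents new Rabs for prenylation, was at -0.29 ± 0.26. The subunits of the prenylating enzyme, Rabggta and Rabggtb, were at 0.13 ± 0.34 and 0.42 ± 0.18, and Rabggtb had values above 0 in 4 of 4 pairs with no call (adjusted p = 0.148). Rabac1, a Rab acceptor of the Golgi, was at 0.12 ± 0.33, and Chml was measured but not tested.

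Among the exchange factors, which load GTP, Rab3ip was called out of 10 tested. Rab3ip, known as an activator of Rab8, had signals of 306, 381, 515 and 516 in the erythroid captures, against 641, 697, 757 and 1024 in the epithelial captures. All 4 erythroid values lay below all 4 epithelial values, and Rab3ip fell by 0.87 ± 0.21 (adjusted p = 0.0201). Of the Rab8 genes, Rab8b was higher and Rab8a was at -0.45 with no call, and any link to Rab3ip was not tested. The call of Rab3ip was lost without replicate 1 (adjusted p = 0.0698), without replicate 4 (0.117), without the pair term (0.0696) and without a variance trend (0.0557). Among 15 activating proteins, which speed GTP hydrolysis, Evi5, described as acting on Rab11, fell by 0.61 ± 0.17 (adjusted p = 0.0379), at mean signals of 1897 in the erythroid and 2992 in the epithelial captures. The call of Evi5 was lost without replicate 2 (0.0998), without replicate 3 (0.126) and without replicate 4 (0.164), for the first 2 pairs alone (0.193), without the pair term (0.152) and without a variance trend (0.115).

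Among 24 effectors the class V myosins, motors that carry vesicles along actin, went opposite ways. Myo5b, a motor of recycling endosomes in epithelia, had signals of 390, 384, 213 and 186 in the erythroid captures, against 585, 690, 496 and 563 in the epithelial captures. Myo5a, the motor that moves melanosomes with Rab27a, had 409, 198, 326 and 172 in the erythroid captures, against 137, 164, 78.3 and 64.6 in the epithelial captures. Neither gene's groups overlapped. Myo5b fell by 1.07 ± 0.24 (adjusted p = 0.015), and Myo5a was higher by 1.10 ± 0.32 (adjusted p = 0.0433). The difference between them was not tested. Myo5b lost its call without replicate 3 (0.0584), without replicate 4 (0.104), for the first 2 pairs alone (0.153), without the pair term (0.108) and without a variance trend (0.0527). Myo5a lost its call without replicate 1 (0.142), without replicate 3 (0.148) and without replicate 4 (0.11), in either set of 2 pairs (0.186 and 0.0638), with no filter (0.101), without the pair term (0.141) and without a variance trend (0.0623).

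Plin3, described as an effector of Rab9 and as a lipid droplet protein, had signals of 69.8, 210, 271 and 397 in the erythroid captures, against 114, 280, 1151 and 935 in the epithelial captures. The groups overlapped, but the erythroid capture was lower within each pair. Plin3 fell by 1.16 ± 0.31 (adjusted p = 0.0315). Its call was lost without replicate 3 (-0.82, adjusted p = 0.145), without replicate 4 (0.156), for the first 2 pairs alone (-0.61, adjusted p = 0.6), without the pair term (0.391), with no filter (0.0615) and without a variance trend (0.0902).

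**Figure D4:**
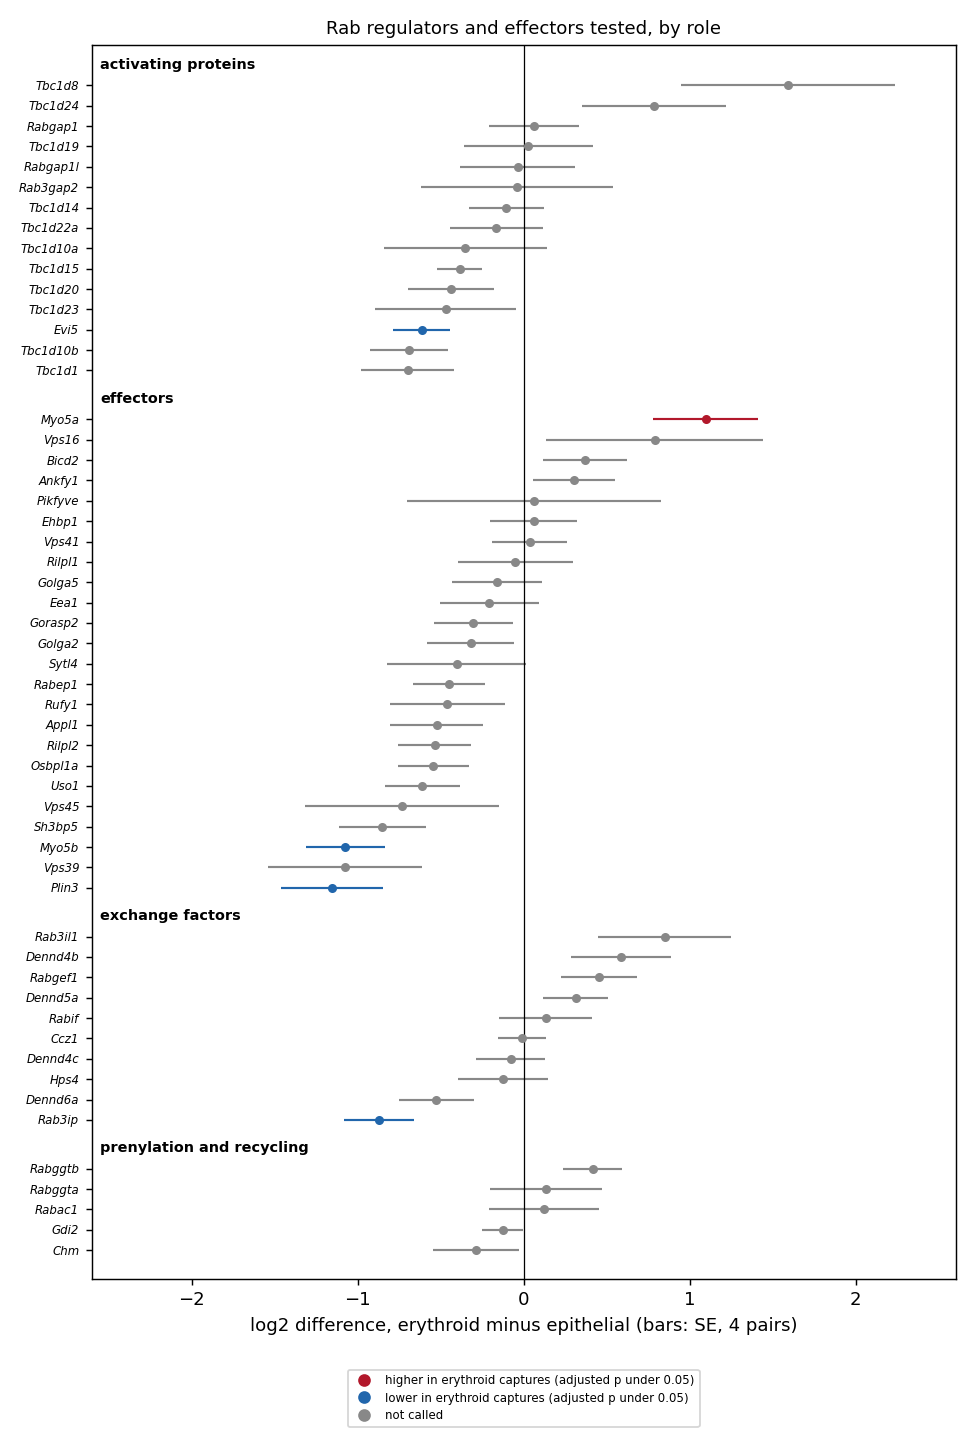
Log2 difference between erythroid and epithelial captures for the 54 Rab regulators and effectors tested, by role, with bars for the moderated limma standard error (4 pairs). Myo5a at 1.10 is the gene called higher, and Plin3 at -1.16, Myo5b at -1.07, Rab3ip at -0.87 and Evi5 at -0.61 are those called lower.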

How the data were processed

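The authors deposited 1 intensity (MAS5 signal, linear scale) per probe set and array, made with GCOS, MAS5 and affy per the submitters' processing notes, with no version given in the sources used here. A mean trimmed by 2% at both ends was 500 on every array of the deposited table. Of 22690 probe sets, 64 controls were left out of the tests. Probe sets of several genes (691) named no gene. Before log2, 8.14 was added to each value (10th percentile of the deposited table). Array medians then spanned 0.59, and the arrays were quantile normalised. Probe sets at or above their array's median on at least 4 arrays were tested.

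The fit used R 4.3.3 and limma 3.58.1 (lmFit, then eBayes with trend), modelling pair and cell type and leaving 3 residual degrees of freedom. To these the moderation of the variance adds degrees of freedom drawn from all probe sets. P-values are two-sided and adjusted by Benjamini-Hochberg over all 11449 probe sets. A gene was read from its brightest tested probe set. Background on each array was set at the 95th percentile of 117 probe sets of genes not expected in these tissues (receptors for odorants, pheromones and tastes, beta-defensins and proteins associated with keratin). Pairing comes from the labels' protocols, and the 2 samples of a pair deviated together from their group means (correlations 0.44, 0.34, 0.31 and 0.54), although in pairs 2 and 3 the highest correlation with an array of another pair was slightly above this (0.35 and 0.33). The members, role groups, lists and marker lists were chosen with earlier results of these data known. All Rab genes called and all tested members of the prenylation list were named, with the called regulators that had 1 sign in all 4 pairs, up to 5 in each direction. Uncalled Rab genes are given by role. Alternatives changed the scaling, offset, filter, pair term, variance trend, probe set choice and pairs used. Fits of 2 pairs alone lean most on the moderated variance, so a low adjusted p in them still rests on 2 pairs. The procedure was run on simulated data with independent noise and planted differences. Those data did not carry the contrast between the sets of pairs, and no outcome of that run is given here. Protein sequences were not used here. Whether the pooled replicates share a litter is not stated, and p-values measure the spread between these samples, moderated over all probe sets.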

Additional observations from a re-analysis of the deposited data

Results flagged for a closer look

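Rab8b was marked because its difference between captures was itself different in the sets of pairs: pairs 3 and 4 exceeded pairs 1 and 2 by 1.784 on the log2 scale (adjusted p of the interaction 0.00822). In 74 groups of 4 arrays, 1 array stood far from the other 3 in 2 groups, and chance alone marks about 1 in 20. The erythroid array of pair 4 was high for Rab40c, at 8.44 on the normalised log2 scale against 8.04 to 8.10 on the other erythroid arrays (gap over range 0.85). The epithelial array of pair 4 was low for Rab5a, at 11.5 against 12.0 on the other epithelial arrays (gap over range 0.83).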

How the results depend on the processing

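Of 116 values of the 7 called Rab genes under the alternatives, 0 changed sign and 23 lost the call, as described beside each gene. The Rab genes called numbered 0 higher and 2 lower without the pair term (no replicate block), and 0 and 2 without a variance trend, in each case Rab17 and Rab30. Calls fell over all 7191 genes too, to 109 higher and 212 lower without the pair term and 106 and 246 without a variance trend. Without x, s and a probe sets 3 of 30 tested were lower, beside 451 of all 5562 genes tested. Rab17 and Rab30 have no other tested probe set, and the other probe set of Rab4a was not called (-0.90, adjusted p = 0.158). Pairs 3 and 4 alone gave 4 higher and 10 lower, beside 898 higher and 1019 lower of all 7191 genes. The median of the Rab genes was -0.42 with median centring. Leaving out 1 pair in turn gave 0 to 2 higher and 4 to 5 lower, with 0 higher without replicate 3 or without replicate 4 and 2 higher without replicate 2. Over all 7191 genes it gave 111 to 428 higher and 243 to 593 lower, with the fewest calls without replicate 4. The interaction was called for 3 Rab genes with median centring and 0 without a variance trend, in place of 1 in the main fit. Interaction calls over all genes were not counted in these settings, so these counts show nothing particular to Rab genes. Regulators and effectors called were 0 higher with no filter, with the stricter filter, in pairs 1 and 2 alone and in pairs 3 and 4 alone, and 0 higher and 0 lower without the pair term and without a variance trend. They were 7 lower with median centring, 1 lower in pairs 1 and 2 alone and 9 lower in pairs 3 and 4 alone. Beside these, 788, 397 and 1019 of all 7191 genes were lower. Genes called higher over the table were 341 of 12393 with no filter, 437 of 5171 with the stricter filter and 240 of 7191 in pairs 1 and 2 alone. For the regulators and effectors, leaving out 1 pair in turn gave 0 to 1 higher and 0 to 4 lower. This stands beside the 111 to 428 higher and 243 to 593 lower over all 7191 genes given above. Median centring moved the median of all genes tested to -0.14 from -0.01, with 298 of all genes higher and 788 lower in place of 433 and 638.

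Some uncalled genes took the opposite sign. In pairs 3 and 4 alone these were Gdi2 at 0.10, Rab11b at 0.042, Rab1b at -0.15, Rab38 at 0.63, Rabac1 at -0.13 and Rab5c at -1.13, which alone was called (adjusted p = 0.0404). In pairs 1 and 2 alone they were Rab18 at 0.22, Rab29 at -0.31, Rab2b at -0.27, Rab40c at 0.10, Rab43 at -0.035 and Rab6b at 0.18. With median centring Rab1b was at -0.18, Rab6a at -0.10 and Rabac1 at -0.031, with the 75th percentile Rab1b was at -0.025, and without x, s and a probe sets Gdi2 was at 0.00475. Leaving out 1 pair in turn gave -0.24 to 0.0086 for Gdi2, -0.071 to 0.00156 for Rab11b, -0.093 to 0.15 for Rab1b, -0.13 to 0.29 for Rab29, -0.16 to 0.27 for Rab2b, -0.65 to 0.042 for Rab38, -0.30 to 0.057 for Rab40c, -0.084 to 0.74 for Rab43, -0.24 to 1.06 for Rab5c, -0.24 to 0.32 for Rabac1 and -0.16 to 0.43 for Rabggta. The cause of these changes was not tested. Signal over background limited the dim Rab genes, of which 12 were not tested.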

Other observations

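Rab20, an endosomal Rab left untested because only 3 arrays reached the median, ranged from 7.51 to 136 in the erythroid and from 68.4 to 660 in the epithelial captures, with 2 of 4 arrays above background in each. With no filter it was called lower, at -1.82 ± 0.46 (adjusted p = 0.0383). Rab3d, a Rab of regulated secretion, ranged from 25.1 to 149 in the erythroid and from 71.8 to 308 in the epithelial captures, with 1 and 3 arrays above background, and was at -1.13 ± 0.43 with no filter (adjusted p = 0.169).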
